A study of Homo sapiens with 4 samples.

Results

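The ETS genes encode transcription factors that share a DNA-binding domain, the ETS domain, which recognises a GGAA core. The epithelial members EHF, ELF3 and ELF5 were examined here in open chromatin together with 6 members of wider use, ELF1, ELF2, ETS1, ETS2, ETV6 and ERG. These 9 genes, of 19974 protein-coding genes in the annotation, were listed by name. The list was chosen by the presence and strength of called intervals near EHF in these same libraries. The counts of open regions and of gained regions at EHF are therefore a description without a test. Each gene was taken with 100 kb on each side, and the 9 windows held 181 of the 122856 open regions of the study.

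The assay was ATAC-seq, which uses a transposase (Tn5) to insert sequencing adapters where DNA is accessible, and the cells were HCT116, an established human colorectal carcinoma cell line. One group of 2 libraries came from stable HCT116 cells that carried FOXD2, a transcription factor of the forkhead class, as its whole coding sequence in the lentiviral vector pSin. The control group of 2 libraries came from stable cells that carried the empty pSin vector. All cells had been selected with puromycin at 5 ug per ml, and 50000 cells were lysed per library. No label states whether replicates were separate cultures, so the spread within a group may be technical. The level of FOXD2 was not measured here, and the promoter of the vector is not named in the labels.

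An open region was taken as gained where both FOXD2 libraries had a called interval in it and neither control had one, and as lost in the reverse case. Over the whole study 4777 regions (3.89%) were gained and 4758 (3.87%) lost. With 2 libraries a group no exact permutation test over libraries can give a two-sided p below 0.333, so differences are described by the values of each library beside the share over all regions. The lists held 82739 and 64675 intervals in FOXD2 replicates 1 and 2, against 77752 and 72796 in control replicates 1 and 2, so FOXD2 replicate 2 had the shortest list. Read depth is unknown. The median of the authors' fold over local background was 5.3 and 5.52 in the FOXD2 lists, against 5.67 and 5.78 in the control lists. Fold was thus lower over the whole FOXD2 lists. The share of all regions whose groups do not overlap in fold or pileup was not counted. The weakest called summit had a pileup of 8 or 9 tags, and a site below that could not appear. Of 10 colon epithelial marker genes, 8 had an interval at a gene end in all 4 libraries, among them CDH1, EPCAM and CDX2. KRT20 lacked one in FOXD2 replicate 1, and VIL1 had one in FOXD2 replicate 2 and control replicate 2 only. For scale, 53.6% of annotated 5′ ends of protein-coding genes were under an interval in all 4 libraries, counted per 5′ end and not per gene. Of other cell types, 2 of 6 fibroblast markers (COL1A1 and COL1A2), 1 of 6 leukocyte markers (SPI1) and 2 of 6 endothelial markers (KDR and ERG) had an interval at a gene end in all 4 libraries. The leukocyte gene PTPRC and the endothelial gene PECAM1 had no interval at a gene end in any library. The endothelial marker CDH5 had one in both FOXD2 libraries and in no control, and the leukocyte marker CD3E had one in both controls and in no FOXD2 library.

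As background, EHF, ELF3 and ELF5 are known as the epithelium-specific ETS factors. ELF3 acts in the differentiation of intestinal epithelium in the mouse, ELF5 in mammary alveoli and trophoblast in the mouse, and EHF is expressed in many glandular epithelia. Forkhead factors such as FOXD2 bind motifs with a TGTTTAC core. EHF and ELF5 are neighbours on chromosome 11. EHF, on the plus strand, spans 34621093 to 34663288, and ELF5, on the minus strand, spans 34478791 to 34513794 (hg38).

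The RefSeq promoter sequences (GRCh38.p14, from 250 bases before to 50 after an annotated 5′ end, printed 5′ to 3′ on the strand of the gene) of the epithelial members are shown because the results below turn on their 5′ ends. They were searched on both strands for the forkhead letters TGTTTAC, the ETS letters GGAAGT, the Grainyhead letters AACCNGTT, the AP-1 letters TGANTCA and the TEAD letters GGAATG, the ETS and TEAD motifs sharing the letters GGAA. Capitals mark every match.
EHF, the first 5′ end, plus strand, chr11:34624007-34624306: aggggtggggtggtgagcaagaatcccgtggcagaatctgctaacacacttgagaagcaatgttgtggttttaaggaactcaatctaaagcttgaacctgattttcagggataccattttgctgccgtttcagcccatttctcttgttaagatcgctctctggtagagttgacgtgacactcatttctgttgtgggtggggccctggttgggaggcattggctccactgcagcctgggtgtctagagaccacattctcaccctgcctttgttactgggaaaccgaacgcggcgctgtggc
EHF, the second 5′ end, plus strand, chr11:34632316-34632615: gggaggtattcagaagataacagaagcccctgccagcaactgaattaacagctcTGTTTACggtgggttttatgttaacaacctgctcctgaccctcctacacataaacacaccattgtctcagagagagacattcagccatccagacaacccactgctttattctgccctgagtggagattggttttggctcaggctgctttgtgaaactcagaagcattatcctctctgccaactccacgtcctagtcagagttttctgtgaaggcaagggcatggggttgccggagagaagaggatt
ELF5, minus strand, chr11:34511675-34511974: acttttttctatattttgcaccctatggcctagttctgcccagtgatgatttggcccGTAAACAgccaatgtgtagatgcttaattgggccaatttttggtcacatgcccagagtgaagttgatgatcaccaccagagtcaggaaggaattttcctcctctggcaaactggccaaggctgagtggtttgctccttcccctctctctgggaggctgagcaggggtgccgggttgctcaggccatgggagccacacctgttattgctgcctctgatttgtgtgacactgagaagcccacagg
ELF3, plus strand, chr1:202010337-202010636: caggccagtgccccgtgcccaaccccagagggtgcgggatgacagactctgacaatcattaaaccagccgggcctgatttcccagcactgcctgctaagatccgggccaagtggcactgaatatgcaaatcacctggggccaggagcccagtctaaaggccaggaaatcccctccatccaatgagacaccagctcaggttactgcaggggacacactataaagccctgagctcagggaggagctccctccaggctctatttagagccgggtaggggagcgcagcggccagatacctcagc
The forkhead letters stood in the second EHF promoter and, on the opposite strand, in the ELF5 promoter, and in 3.42% of 34789 RefSeq promoters. The other matches among 16 promoters of 8 member genes were an ETS match in the second ETS2 promoter and a TEAD match in each of the first and the second ERG promoter. The first EHF promoter and the ELF3 promoter held none of the 5 motifs. The shares of all promoters with a match were 22.8% for ETS, 1.73% for Grainyhead, 7.69% for AP-1 and 14.1% for TEAD. The ETS1 promoter was not analysed here.

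The first 5′ end of EHF had an interval in FOXD2 replicate 1 and in both controls. Its −log10 q, the authors' measure of how far a summit stands above local background within its own list, was 11.9 in FOXD2 replicate 1 and no interval was called in FOXD2 replicate 2, against 8.90 and 8.21 in control replicates 1 and 2. The second 5′ end, further along the gene at 34632566, lay under an interval in both FOXD2 libraries and in neither control. The intervals there were weak, from 34632239 to 34632781 in FOXD2 replicate 1 (−log10 q 5.36) and from 34632343 to 34632575 in FOXD2 replicate 2 (4.28). Control replicate 1 had an interval just past the 5′ end, from 34632596 to 34632822 (2.88), and control replicate 2 had none. The forkhead letters at 34632370 to 34632376 were thus inside the interval of both FOXD2 libraries and outside every control interval, although the merged region counts as present in control replicate 1. The 2 FOXD2 intervals stood at only the 20.0 and 7.98 percentiles of their lists. Of 22132 annotated 5′ ends of protein-coding genes, 67 (0.303%) showed the same pattern as the second EHF one, and 168 (0.759%) showed the reverse. EHF was chosen by its intervals in these same libraries, so this share is a description and not a test.

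The 5′ end of ELF5 in the RefSeq promoter set, at 34511724, was under no interval in any library, as were 36.1% of all 5′ ends. Its forkhead letters at 34511911 to 34511917 lay in no interval. The gene span reaches further, to 34513794, which lay under an interval in FOXD2 replicate 1 and control replicate 1 only. The merged region there, at 34512830 to 34513939 and 1106 bp before the 5′ end at 34511724, was in all 4 libraries. Its −log10 q was 31.2 and 18.0 in the FOXD2 libraries, against 32.4 and 15.4 in the controls, and the groups overlapped.

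Open regions were more numerous with FOXD2 in the EHF window. EHF was chosen by its intervals in these libraries, so the counts in this paragraph are a description and not a test. Of its 25 regions, 22 and 16 had an interval in FOXD2 replicates 1 and 2, against 10 and 12 in control replicates 1 and 2. Over the whole study the numbers were 80600 and 62408 in the FOXD2 libraries, against 75807 and 69782 in the controls, where the groups overlapped. In the EHF-ELF5 neighbourhood as a whole (chromosome 11, 34378791 to 34763288, 37 regions), 31 and 25 regions had an interval in the FOXD2 libraries, against 14 and 16 in the controls.

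**Figure D1:**
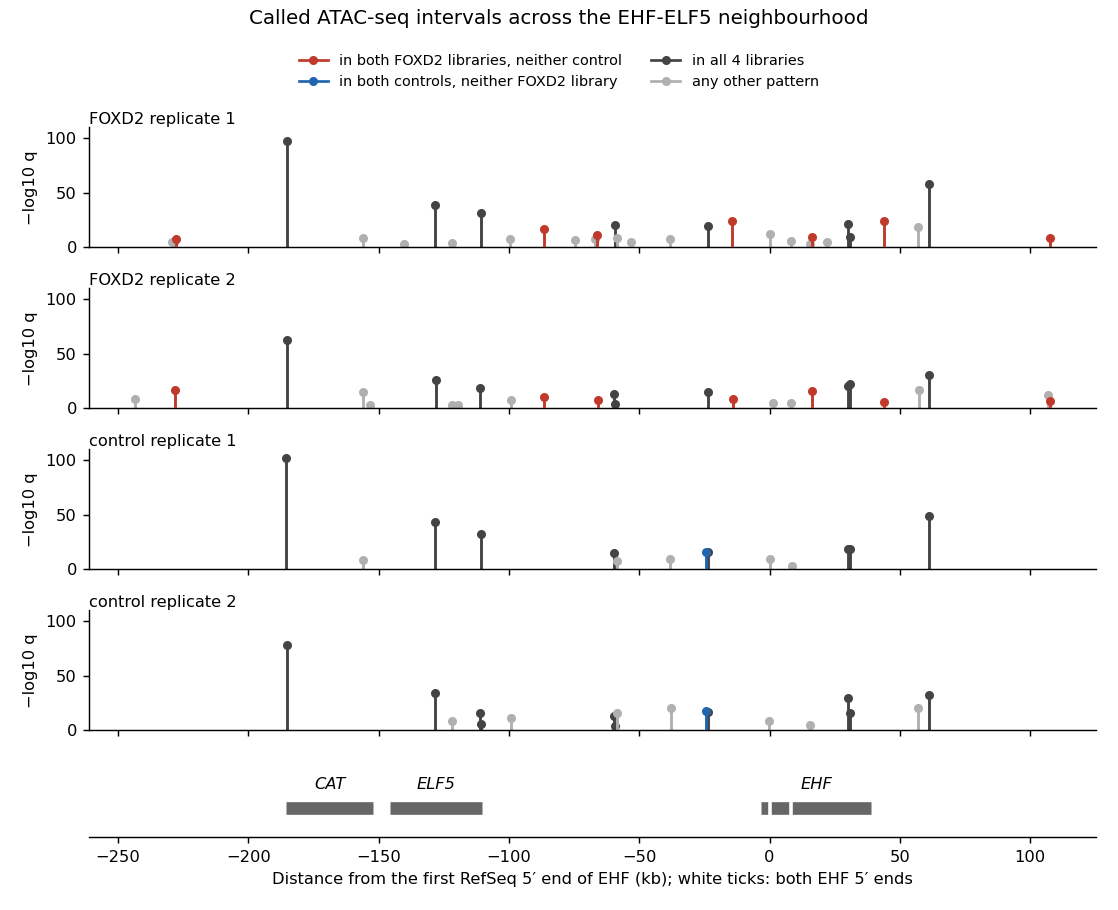
Called intervals of the 4 libraries across the EHF-ELF5 neighbourhood, drawn as lines whose height is the authors' −log10 q, against the distance in kb from the first annotated 5′ end of EHF. Red lines stand for the 7 gained regions, blue for the 1 lost region, dark grey for regions in all 4 libraries and light grey for other patterns; grey bars below are the genes.

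Of the 37 regions of the neighbourhood, 7 (18.9%) were gained and 1 (2.70%) was lost. From low to high coordinates, the first gained region lay at 34396005 to 34396495, 82.3 kb below ELF5, where ABTB2 is the nearest protein-coding gene. Its −log10 q was 7.29 and 16.8 in FOXD2 replicates 1 and 2. The other 6 all lay in the EHF window, 3 of them in the intergenic stretch between ELF5 and EHF, 1 inside EHF and 2 above it.

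Within the stretch between the genes, the region at 34537646 to 34538108, 23.9 kb above ELF5, had a −log10 q of 16.2 and 10.6 in FOXD2 replicates 1 and 2. The region at 34557784 to 34558647 was the widest gained one (864 bp), with 11.4 and 7.60. The region nearest to EHF, at 34609725 to 34610276, lay 13981 bp before the first 5′ end and had 23.5 and 8.30, with summit pileups of 45 and 26 tags. The nearest control interval to these 3 regions was between 5572 and 12576 bp away, so none of them was the edge of a control peak.

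Inside EHF, the gained region at 34640346 to 34640650 lay 7.78 kb past the second 5′ end and 553 bp from a control interval, with a −log10 q of 9.53 and 15.3 in FOXD2 replicates 1 and 2. Above the gene, the region at 34667765 to 34668448 stood 4.48 kb from the higher-coordinate end and had 23.5 and 5.28, the widest gap between the FOXD2 libraries among the gained regions of the 9 windows. The last, at 34731515 to 34731937, had 8.46 and 6.55. In FOXD2 replicate 1 the 6 gained regions of EHF stood between the 42.2 and the 76.0 percentile of that library's list, and in FOXD2 replicate 2 between the 15.8 and the 63.2 percentile, so they ranged from weak to moderately strong peaks.

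The only lost region of the neighbourhood, at 34599490 to 34600078, had a −log10 q of 15.3 and 17.9 in control replicates 1 and 2. It ended 267 bp from an interval of the FOXD2 libraries, which belonged to the next region at 34600341 to 34601157. That region was in all 4 libraries, with summit pileups of 52 and 42 tags in the FOXD2 libraries, against 42 and 43 tags in the controls, and a fold of 4.99 and 4.80, against 5.14 and 5.15. When intervals up to 500 bp apart were joined, 0 regions of the neighbourhood were lost and 6 were gained.

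Most regions that all 4 libraries shared in the neighbourhood had groups that overlapped in rank. The strongest of the EHF window, at 34685214 to 34685719, 21.9 kb above the gene, had a −log10 q of 58.1 and 30.1 in FOXD2 libraries, against 49.1 and 32.0 in controls. To compare strength over a common set, each library's regions were ranked among the 39933 regions in all 4 libraries, where 19.0% had both FOXD2 ranks above both control ranks and 19.6% had both below. Of the 8 shared regions of the neighbourhood 2 were of the first kind and 0 of the second. These 2, at 34564034 to 34565257 and at 34600341 to 34601157, both lay between ELF5 and EHF. The ranks of the first were at the 43.2 and 35.7 percentiles in the FOXD2 libraries, against 26.3 and 24.5 in the controls. In −log10 q the groups overlapped at both, the first having 19.8 and 13.2, against 14.5 and 13.2. Fold was lower in both FOXD2 libraries at the second. It was also lower at 34653877 (5.63 and 5.67, against 6.76 and 7.98) and at 34685214 (11.6 and 7.84, against 12.1 and 9.8). At the remaining shared regions of the neighbourhood the groups overlapped in fold. Local background under the summit was higher with FOXD2 at all 5 shared regions of the EHF window, and the groups did not overlap. At the strongest, from 34685214, it was 6.14 and 6.14 tags with FOXD2, against 4.56 and 4.0 tags in the controls. At the other shared regions, starting at 34438484, 34495122 and 34512830, this background overlapped between groups. Whether tags rose broadly around the gained regions was not tested.

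Windows with as many gained regions as EHF were few. Of 19974 protein-coding genes, 18 (0.0901%) had 6 or more gained regions in their window, EHF among them, and 14 (0.0701%) of these also had no more than 1 lost region. The count was used in choosing EHF and is a description. ELF5, with 4 gained regions of which 3 also lie in the EHF window, was among 194 genes (0.971%) with 4 or more. In the 1 Mb below the neighbourhood 2 of 91 regions were gained and 3 lost, and in the 1 Mb above it 6 of 64 were gained and 4 lost. The nearest region outside the neighbourhood on the low side, 6796 bp beyond it, was in all 4 libraries, and that on the high side, 5988 bp beyond it, was in FOXD2 replicate 1 alone.

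**Figure D2:**
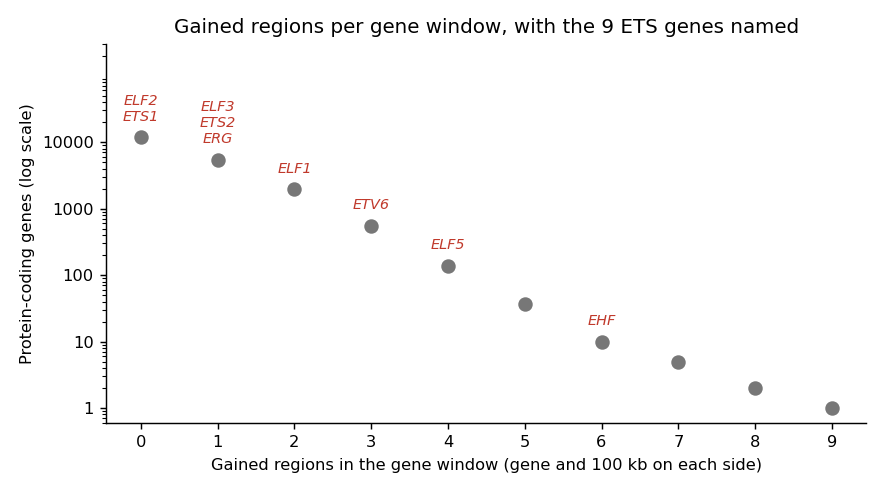
Number of protein-coding genes (log scale) by the number of gained regions in the gene and 100 kb on each side. Points are counts over 19974 genes, and the 9 ETS genes are named above their value: EHF stands at 6, ELF5 at 4, ETV6 at 3, and ELF2 and ETS1 at 0.

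Leaving out a library relaxes the definition of gained and lost. The neighbourhood then had 13 gained and 4 lost regions without FOXD2 replicate 1, 14 and 1 without FOXD2 replicate 2, 9 and 1 without control replicate 1, and 10 and 1 without control replicate 2. Gained regions outnumbered lost ones in each case. Over the whole study the same omissions gave 12822 gained and 10976 lost, 22597 and 6868, 7599 and 15793, and 6986 and 19198.

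ELF3, the intestinal epithelial member, had a promoter region that was weaker with FOXD2. Its window (chromosome 1, gene at 202010587 to 202017183) was the densest of the 9, with 28 regions, of which 17 were in all 4 libraries, 1 was gained and 3 were lost. Regions with an interval numbered 21 and 19 in the FOXD2 libraries, against 25 and 22 in the controls, and the groups did not overlap. Among all protein-coding gene windows, 5.29% had at least 3 lost regions. The excess of lost over gained regions at ELF3 depended on the processing, with 2 gained and 2 lost for intervals with a −log10 q of 5 or more and for lists of equal length, and 1 of each when intervals up to 500 bp apart were joined.

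At the 5′ end of ELF3, the region at 202010015 to 202010743 was in all 4 libraries and weaker in both FOXD2 libraries. The authors' fold over local background was 4.68 and 4.27 in the FOXD2 libraries, against 6.20 and 6.21 in the controls. The summit pileup was 67 and 55 tags in the FOXD2 libraries, against 113 and 107 tags in the controls, while the genome-wide background was 1.84 and 1.84 tags, against 1.68 and 1.71. The groups did not overlap in fold, pileup or rank, and the lower pileup came with a higher genome-wide background. Median fold was lower over the whole FOXD2 lists too, at 5.3 and 5.52, against 5.67 and 5.78 in the controls. The local background under this summit was also lower, at 13.5 and 12.1 tags in the FOXD2 libraries, against 17.4 and 16.4 tags in the controls. In rank the region stood at the 49.1 and 46.8 percentiles in the FOXD2 libraries, against 76.2 and 76.7 in the controls, a difference of means of −28.5 points. Of 9801 regions that all libraries shared over a 5′ end, 18.9% had both FOXD2 ranks below both control ranks, and 46 (0.469%) had a difference at least as low as that of ELF3.

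The nearest lost region adjoined this promoter. It lay at 202009621 to 202009895, 692 bp before the 5′ end, with a −log10 q of 13.4 and 20.4 and pileups of 60 and 69 tags in control replicates 1 and 2. The promoter interval of FOXD2 replicate 2 began 119 bp away, at 202010015, and that of FOXD2 replicate 1 at 202010238. In both controls the lost region was called apart from the promoter interval, which began at 202010015 and 202010141. Whether it was a flank of the promoter peak was not tested. A region 12.4 kb past the 5′ end, at 202023025 to 202023374, was also lower in rank, at the 12.2 and 33.8 percentiles in the FOXD2 libraries, against 40.8 and 55.4 in the controls.

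Farther from ELF3 regions differed in both directions. At 201955115 to 201955934, 54.7 kb below the gene and nearest to TIMM17A, one of the strongest regions of the window stood at the 90.1 and 96.4 percentiles in the FOXD2 libraries, against 98.3 and 96.8 in the controls. The 4 shared regions of the window with both FOXD2 ranks above both control ranks lay between 36.1 and 95.7 kb past the 5′ end. The one with the widest gap, at 202046716 to 202047747, stood at the 33.9 and 52.8 percentiles in the FOXD2 libraries, against 16.6 and 15.1 in the controls. The gained region at 202064635 to 202064908 had a −log10 q of 9.42 and 7.85 in the FOXD2 libraries. Both remaining lost regions were weak, at 202077390 to 202077710 (5.00 and 5.27 in the controls) and at 202113026 to 202113518 (6.0 and 4.96), and for both the nearest protein-coding gene was GPR37L1.

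**Figure D3:**
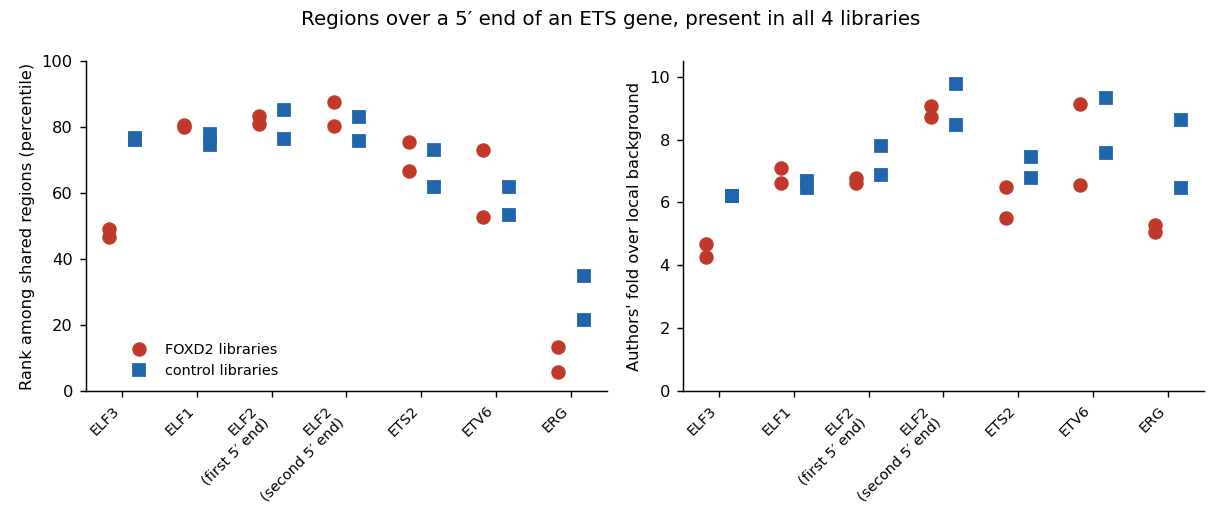
Regions over an annotated 5′ end of an ETS gene that were present in all 4 libraries, by rank among the regions shared by all libraries (left, percentile) and by the authors' fold over local background (right). Each point is 1 library, FOXD2 libraries as red circles and controls as blue squares. At ELF3 and ERG both FOXD2 values lie below both control values in each panel. At ETS2 and the first ELF2 5′ end they do so in fold only.

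ELF1 and ELF2, broadly expressed factors related to each other, had open promoters in all libraries, as did 53.6% of annotated 5′ ends of protein-coding genes. The ELF1 promoter region (chromosome 13, 41060144 to 41062157) stood at the 80.6 and 80.0 percentiles in the FOXD2 libraries, against 77.9 and 74.7 in the controls, a small gap without overlap. Its pileup was lower all the same, at 96 and 77 tags in the FOXD2 libraries, against 111 and 98 tags in the controls. The other annotated 5′ ends of ELF1, at 40982899 and 40982282, were under no interval.

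The ELF1 window had 2 gained regions and 1 lost region of 15. The gained region inside the gene, at 41054287 to 41054528, had a −log10 q of 7.92 and 20.4 in FOXD2 replicates 1 and 2, and lay 592 bp from a control interval. The gained region at 40895729 to 40895980, 35.9 kb below the gene, was weaker, with 6.64 and 3.31. The lost region, at 41107372 to 41107964, had 8.79 and 5.26 in the controls and lay nearest to KBTBD6. An intragenic region at 40993814 to 40994598, shared by all libraries, ranked at the 57.6 and 63.4 percentiles in the FOXD2 libraries, against 41.2 and 40.7 in the controls.

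At ELF2 (chromosome 4, 139057220 to 139177915) 0 of 19 regions were gained and 0 lost. Both annotated 5′ ends were open in all 4 libraries. The first stood at the 80.9 and 83.3 percentiles in the FOXD2 libraries, against 85.1 and 76.4 in the controls, and the second at 80.2 and 87.7, against 82.9 and 75.8. At both the groups overlapped in rank. At the first, fold was lower, at 6.77 and 6.63 in the FOXD2 libraries, against 7.8 and 6.87 in the controls. The 1 shared region of the window with both FOXD2 ranks below both control ranks lay 88.6 kb above the gene, at 139266494 to 139267196.

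ETS1, a factor of lymphoid and endothelial cells that also acts downstream of RAS signalling, likewise had 0 gained and 0 lost regions of 15 (chromosome 11, gene at 128458765 to 128587558). Windows with neither made up 34.1% of all protein-coding genes. Its strongest region lay inside the gene, at 128521766 to 128522960, with summit pileups of 89 and 80 tags in the FOXD2 libraries, against 87 and 83 tags in the controls. In rank it stood at the 89.9 and 91.7 percentiles in the FOXD2 libraries, against 86.8 and 82.4 in the controls, although the pileups overlapped. Of the 5 shared regions of ETS1, 3 had both FOXD2 ranks above both control ranks, yet the number of regions with an interval was 9 and 5 in the FOXD2 libraries, against 9 and 9 in the controls.

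ETS2, which encodes another target and effector of the RAS pathway, had 1 gained and 2 lost regions of 23 (chromosome 21, gene at 38805183 to 38824955). Its promoter region, at 38804968 to 38806749, covered both annotated 5′ ends. The pileup there was 90 and 65 tags in the FOXD2 libraries, against 88 and 67 tags in the controls, and the groups overlapped. Fold was lower without overlap, at 6.48 and 5.5 in the FOXD2 libraries, against 7.44 and 6.79 in the controls. The gained region at 38839117 to 38839384 had a −log10 q of 7.07 and 7.22 in the FOXD2 libraries, and lay 615 bp from a control interval. The lost region at 38798993 to 38799224, 5.96 kb before the first 5′ end, had 12.4 and 6.84 in the controls, with a FOXD2 interval 155 bp away. The other lost region, at 38862818 to 38863229, was weak (4.54 and 4.00).

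Around ETS2 the shared regions differed in both directions. Of the 12 shared regions in its window, 6 had both FOXD2 ranks above both control ranks and 3 had both below. The widest gap among the 58 shared regions of the 9 windows was at 38780353 to 38780720, 24.5 kb before the gene, at the 56.8 and 37.0 percentiles in the FOXD2 libraries, against 6.04 and 23.3 in the controls. The summit pileup there was 40 and 25 tags in the FOXD2 libraries, against 14 and 21 tags in the controls. The neighbouring shared region at 38773009 to 38773632 stood lower in rank, at the 37.6 and 15.9 percentiles in the FOXD2 libraries, against 39.5 and 65.2 in the controls. The strongest region of the window by control values, at 38787443 to 38788515, had a fold of 8.22 and 7.34 in the FOXD2 libraries, against 12.7 and 11.5 in the controls. Its pileup was 71 and 52 tags in the FOXD2 libraries, against 71 and 72 tags in the controls, so the pileups of FOXD2 replicate 1 and control replicate 1 were equal while the local background was higher, at 7.76 and 6.22 tags in the FOXD2 libraries, against 4.68 and 5.34 tags in the controls.

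ETV6, a transcriptional repressor needed in blood formation and a common fusion partner in leukaemia, had 3 gained and 0 lost regions of 23 (chromosome 12, gene at 11649674 to 11895377). The strongest gained region lay inside the gene, at 11730218 to 11730663, with a −log10 q of 11.2 and 15.4 in FOXD2 replicates 1 and 2. The others, at 11580387 to 11580745 (6.47 and 5.48) and at 11958787 to 11959137 (3.95 and 3.99), lay outside the gene and were weaker. The last of these was close to the floor of the lists, at the 6.86 and 5.24 percentiles, and a control interval lay 279 bp from it. Its promoter region was in all 4 libraries, with ranks at the 73.0 and 52.8 percentiles in the FOXD2 libraries, against 61.9 and 53.3 in the controls.

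The only other shared region of ETV6 lay inside the gene, at 11795535 to 11796693, and had the lowest difference of rank in the 9 windows. It stood at the 14.7 and 11.7 percentiles in the FOXD2 libraries, against 42.5 and 43.7 in the controls, and its fold was 5.53 and 4.95 in the FOXD2 libraries, against 8.95 and 7.65 in the controls. The groups did not overlap in rank, fold or pileup, which was 21 and 18 tags in the FOXD2 libraries, against 33 and 38 tags in the controls.

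ERG, an endothelial and blood cell factor, had mostly sparse regions, with 4 of 25 in all 4 libraries and 15 in a single library (chromosome 21, gene at 38367261 to 38661783). Its only open 5′ end, of 4 annotated, was the first, at 38660009 to 38661375. It stood at the 29.9 and 33.6 percentiles of all intervals in the FOXD2 lists, against 64.7 and 50.8 in the control lists. The summit pileup was 15 and 17 tags in the FOXD2 libraries, against 27 and 23 tags in the controls, and the fold was 5.06 and 5.29, against 8.64 and 6.45. The groups did not overlap. In rank the difference of means was −18.7 points, and 2.41% of the 9801 shared 5′ end regions had a difference at least as low. The lost region inside ERG, at 38628453 to 38628732, had a −log10 q of 7.17 and 7.03 in the controls, and the gained region at 38699197 to 38699511 had 8.72 and 3.06 in the FOXD2 libraries. Between ERG and ETS2, 4 regions lie in the windows of both genes, of which 2 were in all libraries.

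**Figure D4:**
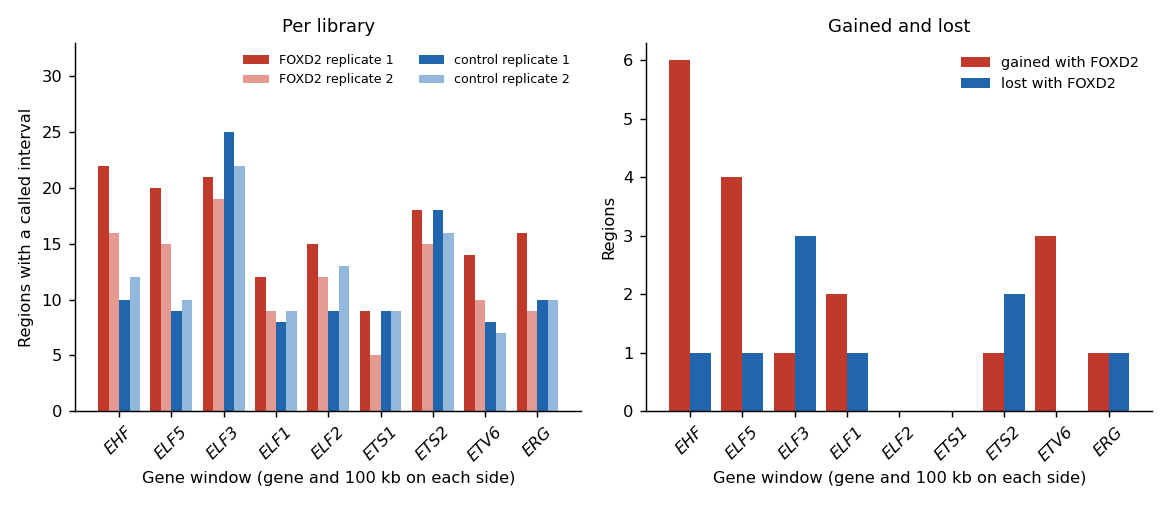
Left, regions with a called interval in each library; right, regions gained (red) and lost (blue) with FOXD2, by gene window. Regions in the windows of neighbouring genes (EHF and ELF5, ETS2 and ERG) are drawn for both; EHF has 22 and 16 regions in the FOXD2 libraries, against 10 and 12 in the controls, and ELF2 and ETS1 have 0 gained and 0 lost.

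Across the 9 windows together, each region counted once, 15 of 181 regions (8.29%) were gained and 8 (4.42%) were lost. Without the EHF and ELF5 windows the counts were 8 gained (5.56%) and 7 lost (4.86%) of 144. Since EHF was chosen for its gained regions, the first of these counts is not evidence about ETS genes as a group. None of the 15 gained regions and 1 of the 8 lost regions lay within 1000 bp of an annotated 5′ end of the 8 genes with one, and 3 gained and 1 lost lay inside a member gene. A called interval of the other group came within 500 bp of 4 lost regions and of 1 gained region. The gained regions from 34640346 in EHF, 41054287 in ELF1 and 38839117 near ETS2 lay just beyond, at 553, 592 and 615 bp. Every other lost region was at least 5168 bp away. The counts depend on this distance, which was added after seeing the data. When intervals up to 500 bp apart were joined, the windows held 12 gained and 6 lost regions.

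Of the 58 regions that all libraries shared in the 9 windows, 18 (31.0%) had both FOXD2 ranks above both control ranks and 9 (15.5%) had both below. Over the whole study these shares were 19.0% and 19.6%. Leaving out 1 library makes such gaps more common everywhere, at 32.3% to 36.7% of shared regions in either direction. In the 9 windows the numbers were then 27 above and 15 below without FOXD2 replicate 1, 32 and 18 without FOXD2 replicate 2, 34 and 20 without control replicate 1, and 30 and 13 without control replicate 2. Shared regions also grow in number with such an omission, from 39933 to between 42051 and 46105 over the whole study. Their number in the 9 windows is not given for these settings, so the counts are not shares of 58.

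**Figure D5:**
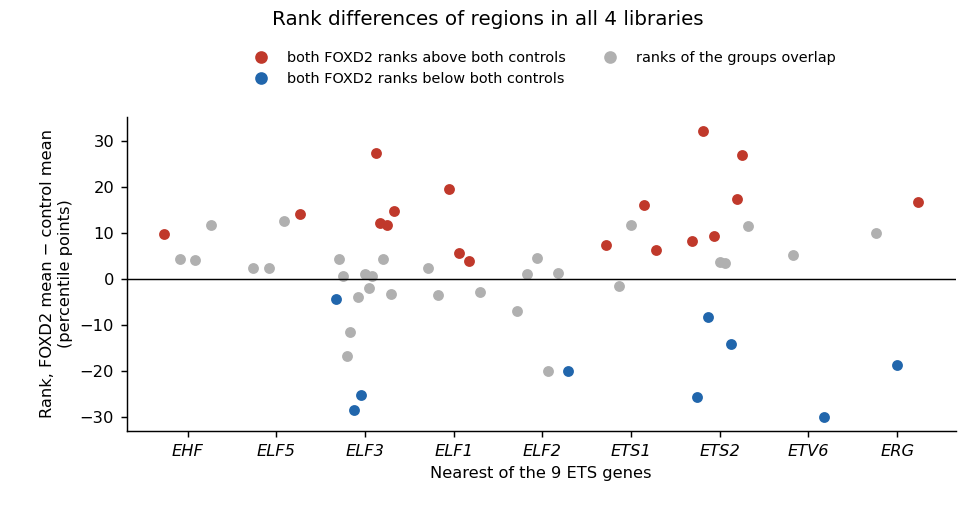
Difference in rank (FOXD2 mean minus control mean, percentile points) for each of the 58 regions in all 4 libraries, placed at the nearest of the 9 ETS genes. Points above 0 ranked higher with FOXD2; coloured points are regions whose groups do not overlap, and the lowest are in the ETV6 body (−29.9) and at the ELF3 promoter (−28.5).

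The other 19 genes of the ETS family were examined in the same way. Of these, 9 (47.4%) had at least 1 gained region in their window, against 40.9% of all protein-coding genes, and 7 (36.8%) had at least 1 lost region, against 45.7%. Gained regions were found at FEV, ELK4, ETV1, ETV3L and SPIC (1 each, with 0 lost). ELF4 had 2 gained and 2 lost, ETV4 and SPDEF 1 of each, and SPI1, the blood cell factor PU.1, 2 gained and 3 lost. ETV5 had 2 lost regions, and ERF and SPIB 1 each, with 0 gained. FLI1, GABPA, ELK1, ELK3, ETV2, ETV3 and ETV7 had neither. Over these windows, counting only regions outside the 9 windows above, 11 of 377 regions were gained and 11 lost (2.92% each). SPDEF, the remaining epithelial member of the family and a factor of goblet cells, had 13 and 12 of its 24 regions in the FOXD2 libraries, against 15 and 11 in the controls, with no separation of the groups.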

How the data were processed

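The authors deposited 1 list of peak intervals per library, and per the submitters' processing notes the tools were MACS2 2.2.7.1, Bowtie2 2.3.4.1, bedtools, Picard and cutadapt 3.4, and the build was hg38. The sources used here do not give their settings or any Tn5 shift. Per the narrowPeak layout, each interval carries a deposited score that was not used. It also carries the authors' fold (a ratio to local background at the summit), −log10 p and −log10 q. These are values of single peaks within 1 list.

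Intervals on chromosomes 1 to 22 and X were merged into regions wherever they shared 1 bp or more (Python 3.11.15, pandas 2.3.3). Intervals on other contigs, 0.208% to 0.251% of a list, were left out. The summit pileup was recovered from the deposited fold and −log10 p under the Poisson model of MACS2, within 0.002, for 100.0% of peaks with a −log10 p under 60 in each list. Gene spans and promoters came from RefSeq tables of GRCh38.p14. Genes and lists were chosen with earlier results of these data known. All 9 members are named, with every gained and lost region, the promoters of the 8 members other than ETS1, and the widest rank gap over the 9 windows in each direction. No test was made over regions, which are not replicates. The merging, ranking and pileup steps were tested on simulated data. Alternatives were a −log10 q of 5 or more, equal list lengths, summit windows, 50% coverage, a 20 kb flank, each library left out and, added after seeing the data, joining across 500 bp.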

Additional observations from a re-analysis of the deposited data

How the results depend on the processing

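No paired analysis was possible because the libraries share only a replicate number and the results come from no test. With a −log10 q of 5 or more, equal list lengths or summit windows of 250 bp to each side, the 6 counts over the 9 windows and over the EHF-ELF5 neighbourhood stayed within 1.5 times their values. A flank of 20 kb, which holds fewer regions, gave 6 gained and 3 lost regions and 8 shared regions ranking above in the 9 windows. Where 50% of a region had to be covered, 5 shared regions ranked below. Joining intervals up to 500 bp apart left 0 lost regions in the neighbourhood. With each library left out in turn, which relaxes the definitions, the 9 windows held 21 to 47 gained and 9 to 21 lost regions, the neighbourhood 9 to 14 gained and 1 to 4 lost, and 27 to 34 shared regions ranked above and 13 to 20 below. In the EHF window gained regions numbered 3 to 10 and lost regions 0 to 4 over the 10 alternatives, with more gained than lost in each. Of 180 counts for single windows, 65 moved by more than 1.5 times. Depth is unknown, and absence from a list is not absence of accessibility.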
